A study of Mus musculus with 2 samples.

Results

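The macrophage identity genes are 10 genes that mark the macrophage lineage or a macrophage state, taken by symbol from a table of 24091 genes measured in primary adipocytes of mice. The members are Adgre1, Csf1r, Cd68, Lyz2, Mrc1, Cd163, Trem2, Cd14, Fcgr1, and Ptprc, and all 10 were found. The rule takes them by symbol and uses no measured value, although the members were chosen with earlier results of these data known. The RNA sequencing data comprised 1 library from sham-irradiated C57BL/6 mice and 1 library from C57BL/6 mice that received pelvic irradiation, which the labels give as 7.5 Gy and 5 days without saying whether the dose was daily or total. Gonadal fat pads were collected 2 months after the radiation, collagenase was used to free the cells, and the floating fraction was kept in culture for 3 days before polyadenylated RNA was taken. Both sample titles also carry the term PBS, whose role the labels do not explain. The sources used here do not give the number, age, or sex of the mice behind each library. Since each condition had 1 library, no difference has a replicate check and no test between conditions was possible.

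Macrophages are phagocytes that live in every tissue and are kept alive by signals through the CSF1 receptor. In adipose tissue, they clear dying adipocytes and take up lipid. Resident macrophages around vessels carry scavenger and mannose receptors, while macrophages that gather at dying adipocytes and fill with lipid turn on TREM2 and lysosomal genes. Monocytes from the blood add to the pool during inflammation.

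The sham and irradiated libraries held 30587000 and 34994000 fragments, respectively, as recovered from the deposited values. Levels are given as FPKM, a measure of fragments corrected for gene length and library size, which allows genes of different length to be compared. Where 2 levels follow each other, the value of the sham library comes before that of the irradiated library. The label of primary adipocytes was checked against 10 adipocyte genes, of which only Pnpla2 and Pparg reached an FPKM of 1 in either library. Adipoq, which encodes the adipocyte hormone adiponectin, had levels of 0.133 and 0.232 FPKM. In contrast, all 10 fibroblast and progenitor genes reached an FPKM of 1, with medians of 97.9 and 99.48. Pparg had 4.59 and 4.69. Outside those 10 genes, Fabp4 and Lpl, which adipocytes and lipid-associated macrophages both use, had higher levels. Fabp4 had 96.9 in both libraries, and Lpl had 68.0 and 66.6. The name adipocyte cultures is kept here because it is the label, and these levels do not establish which cells the cultures held. In these cultures, 2 of the 10 adipocyte genes and 9 of the 10 macrophage identity genes reached an FPKM of 1.

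Lyz2 encodes lysozyme M, an enzyme that cuts bacterial cell walls and is made in large amounts by macrophages and neutrophils. It was by far the most abundant member, at an FPKM of 443 and 410. This placed it at rank 99 and rank 106 of all genes. Cd68, a glycoprotein of the lysosome and endosome membrane of phagocytes, followed with 59.2 and 96.9, at ranks 907 and 523.

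Adgre1, which encodes the F4/80 antigen used to stain mouse macrophages, had an FPKM of 15.7 and 15.5. Mrc1, the mannose receptor CD206 of resident and alternatively activated macrophages, had 11.3 and 16.3. Csf1r, the receptor for the growth factors CSF1 and IL-34, had 10.6 and 13.8. These 3 genes lay within a narrow band in both libraries, and their order changed between them. Trem2, a lipid-sensing receptor that works through the adaptor TYROBP, had 9.28 and 16.6. It was the sixth most abundant member in the sham library and the third in the irradiated library, where Trem2, Mrc1, and Adgre1 differed from each other by little. Cd14, the co-receptor for bacterial lipopolysaccharide, had 7.16 and 7.84, and Ptprc, the leukocyte common antigen CD45, had 5.33 and 6.49. Fcgr1, the high-affinity receptor for immunoglobulin G known as CD64, had 3.84 and 3.98. Cd163, the scavenger receptor for hemoglobin bound to haptoglobin, was the least abundant member, with 0.957 and 0.814. It stayed below an FPKM of 1 in each library, whereas the other 9 members were above 1 in both, so no member passed the filter through 1 library alone. The order of neighbouring genes within a library has no replicate error and was not tested.

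**Figure D1:**
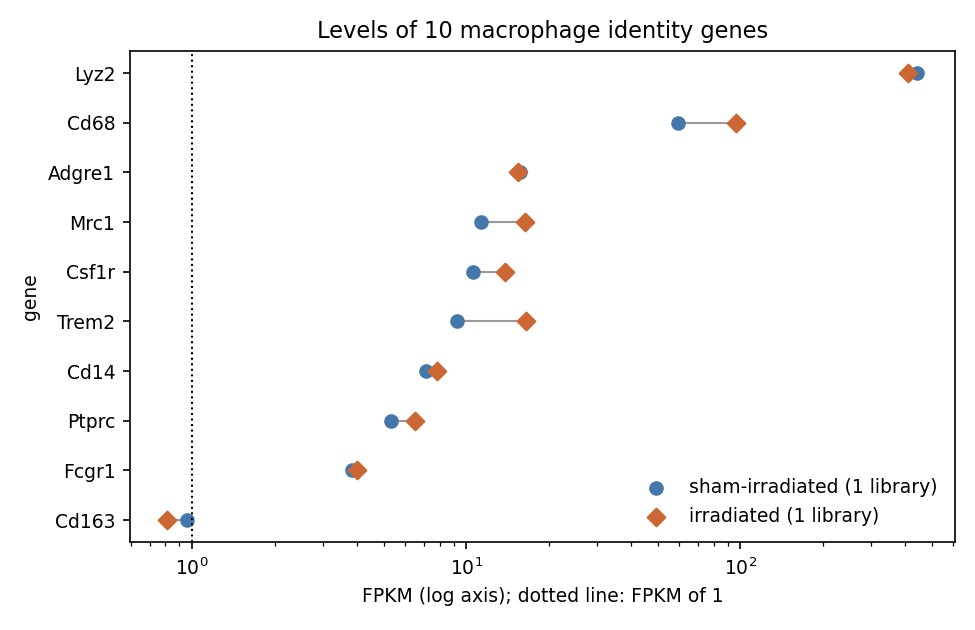
FPKM of the 10 macrophage identity genes on a log axis, with circles for the sham and diamonds for the irradiated library (1 library each, without error bars). Lyz2 lies far to the right of all others, the widest separations are those of Trem2, Cd68, and Mrc1, and only Cd163 lies left of the dotted line at an FPKM of 1.

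Trem2, Cd68, and Mrc1 were higher in the irradiated library by more than 0.5 on the log2 scale. All differences below are those of the deposited log2(FPKM + 0.1), irradiated minus sham. Intervals in brackets are the 95% counting interval of the ratio of fragments, given for the members and for part of the other genes. The interval covers counting error only and no variation between mice or cultures. Copies made by PCR are counted as if they were separate molecules, so the true counting error may be larger.

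Trem2 (chromosome 17, 48346401 to 48352276) had 324 and 662 fragments, and its difference of 0.83 was the largest of the members (interval 0.64 to 1.03). This corresponds to a ratio of 1.79. Cd68 (chromosome 11, 69664213 to 69666170) had 2247 and 4208 fragments and a difference of 0.71 (interval 0.64 to 0.79). Mrc1 (chromosome 2, 14229414 to 14332023) had 1826 and 3026 fragments and a difference of 0.53 (interval 0.45 to 0.62), so its interval reached below 0.5. Differences at least as high as that of Trem2 were found in 1.32% of the 11253 genes that reached an FPKM of 1 in either library, as high as that of Cd68 in 2.07%, and as high as that of Mrc1 in 3.83%.

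The stretches of 250 bases before the start of these 3 genes are shown because the genes were the members past 0.5. They are from RefSeq on GRCm38.p6, 5′ to 3′ on the strand of the gene, and the capitals mark GAGGAA or its reverse complement TTCCTC, the core letters read by PU.1, a transcription factor of myeloid cells. The Trem2 stretch is chr17:48346151-48346400 on the plus strand, that of Cd68 is chr11:69666171-69666420 on the minus strand, and that of Mrc1 is chr2:14229164-14229413 on the plus strand.
Trem2: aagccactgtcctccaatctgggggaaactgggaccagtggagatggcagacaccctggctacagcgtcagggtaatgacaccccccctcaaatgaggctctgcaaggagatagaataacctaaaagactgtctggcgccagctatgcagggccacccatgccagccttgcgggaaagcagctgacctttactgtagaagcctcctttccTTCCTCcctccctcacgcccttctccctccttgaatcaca
Cd68: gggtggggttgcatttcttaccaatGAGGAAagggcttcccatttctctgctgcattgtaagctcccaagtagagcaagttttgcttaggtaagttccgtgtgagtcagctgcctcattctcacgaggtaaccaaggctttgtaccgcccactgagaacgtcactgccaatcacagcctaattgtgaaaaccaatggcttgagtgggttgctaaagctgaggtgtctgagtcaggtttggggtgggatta
Mrc1: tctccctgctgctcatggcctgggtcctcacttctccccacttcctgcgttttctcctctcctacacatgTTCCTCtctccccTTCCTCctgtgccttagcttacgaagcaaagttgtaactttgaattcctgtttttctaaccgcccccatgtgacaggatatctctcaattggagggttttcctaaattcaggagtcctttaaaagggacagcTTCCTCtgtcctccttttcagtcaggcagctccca
The motif was searched on both strands of 300 bases, from 250 before to 50 after the start, in the 7 members with an entry, namely Ptprc, Mrc1, Fcgr1, Cd163, Lyz2, Cd68, and Trem2. It was held by 5 of them, in 5 of their 8 promoters, and by 28.3% of all 32851 promoters of the table. Trem2 held it at position -40, Cd68 at -225 and, outside the printed stretch, at 29, and Mrc1 at -180, -167, and -35. Fcgr1, with a difference near 0, also held it, at -55, as did Ptprc at -158 in 1 of its 2 promoters. The longer form GAGGAAGT, which contains the shorter motif, was in none of the 8 member promoters and in 3.20% of all promoters. A match to these letters is a description and not evidence of binding.

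Csf1r and Ptprc were higher by smaller amounts. Csf1r (chromosome 18, 61105572 to 61131139) had 1780 and 2655 fragments and a difference of 0.38 (interval 0.30 to 0.47), which 7.54% of genes reached. Ptprc (chromosome 1, 138062859 to 138175305), which is carried by all leukocytes and not by macrophages alone, had 1137 and 1585 fragments and a difference of 0.28 (interval 0.17 to 0.40), which 11.9% of genes reached. The counting intervals of both lay above 0 and below 0.5.

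For Cd14, Fcgr1, and Adgre1, the counting interval included 0. Cd14 (chromosome 18, 36725064 to 36726815) had 363 and 455 fragments and a difference of 0.13 (interval -0.07 to 0.33). Fcgr1 (chromosome 3, 96282909 to 96293969) had 305 and 362 fragments and a difference of 0.05 (interval -0.17 to 0.28). Adgre1 (chromosome 17, 57358686 to 57483529) had more fragments, 1546 and 1744, and its difference of -0.02 had a narrower interval, from -0.12 to 0.08. The interval of Adgre1 therefore lay entirely below those of Csf1r, Ptprc, Mrc1, Cd68, and Trem2.

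Lyz2 and Cd163 had values below 0. Lyz2 (chromosome 10, 117277541 to 117282272) had 14253 and 15110 fragments and a difference of -0.11, and it was the only member whose interval, -0.14 to -0.08, lay below 0. In total, 19.9% of genes had a difference as low as that of Lyz2 or lower. Cd163 (chromosome 6, 124304651 to 124330527) had 131 and 127 fragments and a difference of -0.21, and its interval from -0.60 to 0.12 included 0, so a difference was not detectable at this depth.

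Of the 9 members past this filter, 3 were higher by 0.5 or more and 0 were lower by as much, where 4.31% and 1.44% of all 11253 genes were. A difference of at least 1 was found in 0 members, and in 0.791% of all genes with a higher value and 0.373% with a lower value. The counting interval lay above 0 for 5 of the 9 and below 0 for 1, against 23.8% and 17.5% of all genes. The median difference was 0.28 over the 9 members, 0.205 over all 10, and 0.02 over all genes. The macrophage identity genes thus spread from -0.21 to 0.83, and the median stands for few of them. In a culture sequenced as a whole, more cells of a type and more RNA per cell cannot be told apart.

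**Figure D2:**
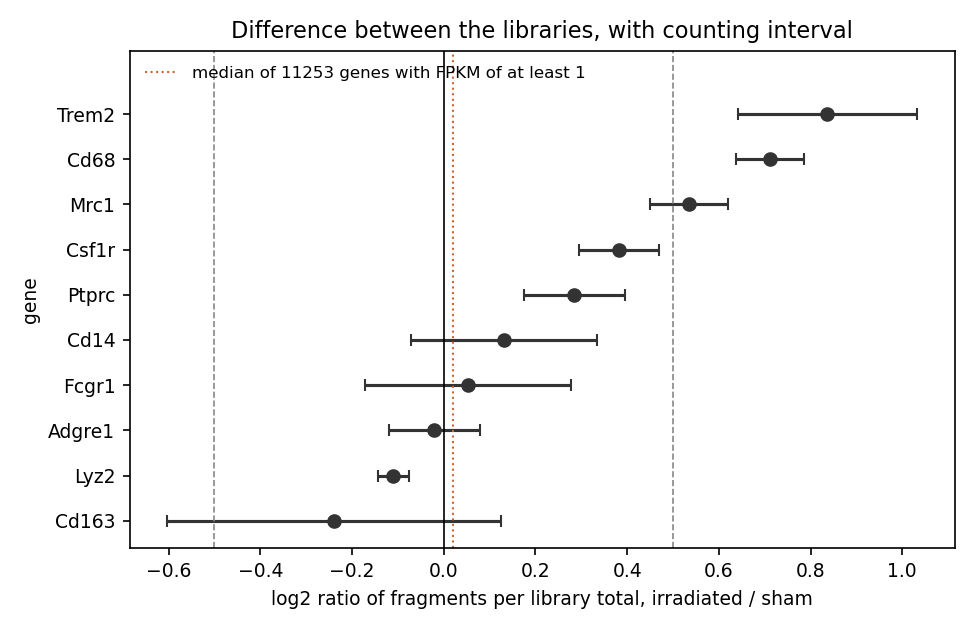
Log2 ratio of fragments per library total, irradiated over sham, for the 10 genes, with bars for the 95% counting interval, dashed lines at -0.5 and 0.5, and a dotted line at the median difference of 0.02 over 11253 genes. The bars of Trem2 and Cd68 lie beyond 0.5, those of Cd14, Fcgr1, Adgre1, and Cd163 cross 0, and that of Lyz2 lies below 0.

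**Figure D3:**
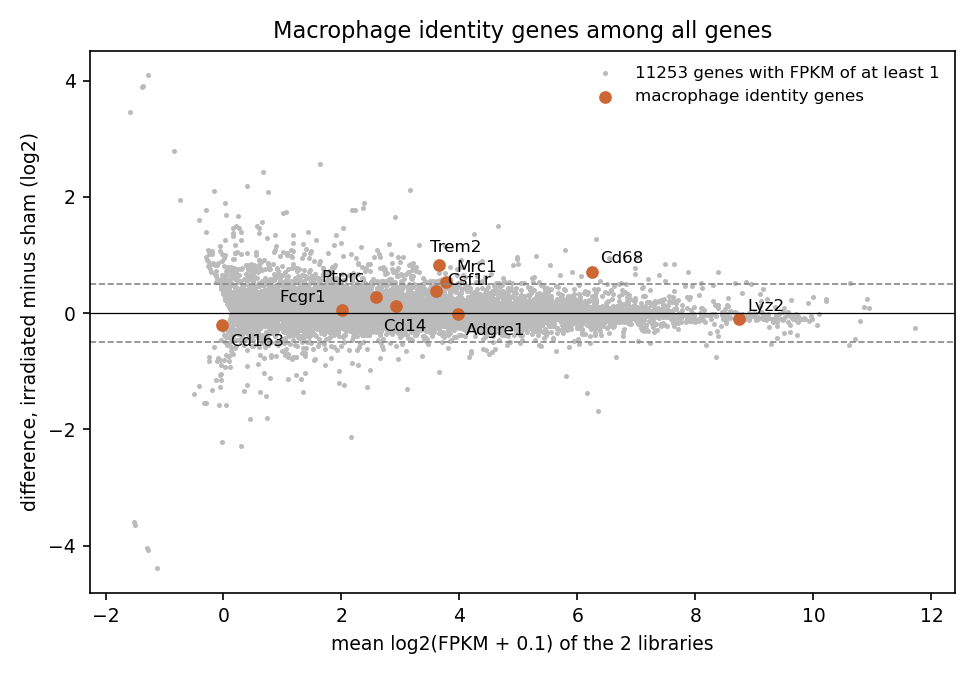
Difference of log2(FPKM + 0.1), irradiated minus sham, against the mean log2(FPKM + 0.1) of the 2 libraries, with grey points for the 11253 genes that reached an FPKM of 1 in either library and orange points for the macrophage identity genes. Cd68 and Trem2 lie near the upper edge of genes of like abundance, Lyz2 lies among the most abundant genes close to 0, and Cd163 lies at the low end.

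Because Lyz2 was the most abundant member and the only one with an interval below 0, its counting was examined. Lyz2 has a neighbouring copy, Lyz1, the lysozyme known from Paneth cells of the gut, and fragments common to both genes could be assigned to either or dropped, depending on the counting rule, which is not known here. Lyz1 had an FPKM of 6.05 and 5.96, on 233 and 263 fragments, with a difference of -0.02 (interval -0.28 to 0.24). The first 300 coding bases are shown to let the copies be compared. They are from the GENCODE M21 annotation of GRCm38. The coding regions lie on the minus strand of chromosome 10, from 117278121 to 117282242 for Lyz2 and from 117288583 to 117292838 for Lyz1, in 4 coding exons each, and are written 5′ to 3′, with the bases that differ in capitals.
Lyz2: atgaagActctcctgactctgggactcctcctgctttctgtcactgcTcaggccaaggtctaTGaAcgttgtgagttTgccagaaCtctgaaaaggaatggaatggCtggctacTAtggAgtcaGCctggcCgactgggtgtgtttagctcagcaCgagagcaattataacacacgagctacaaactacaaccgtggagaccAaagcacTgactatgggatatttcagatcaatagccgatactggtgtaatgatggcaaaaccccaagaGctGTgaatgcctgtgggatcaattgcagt
Lyz1: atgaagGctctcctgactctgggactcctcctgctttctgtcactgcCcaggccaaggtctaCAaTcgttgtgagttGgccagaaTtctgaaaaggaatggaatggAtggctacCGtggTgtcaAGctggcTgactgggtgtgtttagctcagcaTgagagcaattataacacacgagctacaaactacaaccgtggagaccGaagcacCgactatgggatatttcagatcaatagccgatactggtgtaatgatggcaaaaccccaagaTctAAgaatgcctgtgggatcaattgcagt
The copies differed at 22 of 447 coding bases, 20 of them in the stretch shown, an identity of 95.1%, and the longest identical coding run was 118 bases. Over the whole Lyz2 transcript of 1316 bases, 15.4% of windows of 50 bases were also found in the Lyz1 transcript, as were 1.97% of windows of 100 bases. Most windows of these lengths in the Lyz2 transcript were thus not found in that of Lyz1. The level of Lyz1 was a small part of that of Lyz2 in both libraries, but both levels come from the same unknown counting rule. The part of shared fragments in the Lyz2 difference was not tested.

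Among the other members, Cd68 lies 766 bases from Eif4a1, a translation initiation factor gene on the same strand with an FPKM of 449 and 430 and a difference of -0.06. Csf1r lies 138 bases from Hmgxb3 on the opposite strand, which had 5.40 and 5.36 and a difference of -0.01. The neighbours of Cd68 and Csf1r thus differed by little between the libraries. The library preparation is labelled as stranded, but the use of strand in counting is not known here.

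The ratio between members within a library does not depend on how the libraries were scaled, so each member was set against Csf1r. The ratio of the Trem2 FPKM to that of Csf1r was 0.875 and 1.20, a change of 0.45 on the log2 scale (counting interval 0.24 to 0.66). The Cd68 ratio was 5.58 and 7.01, a change of 0.33 (interval 0.21 to 0.44), and the Mrc1 ratio was 1.06 and 1.18, a change of 0.15 (interval 0.03 to 0.27). These 3 genes were higher for each Csf1r fragment in the irradiated library.

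The other macrophage genes were lower relative to Csf1r. The Lyz2 ratio was 41.7 and 29.7, a change of -0.49 (interval -0.59 to -0.40), and the Adgre1 ratio was 1.48 and 1.12, a change of -0.40 (interval -0.53 to -0.27). Fcgr1 changed by -0.33 (interval -0.57 to -0.09), Cd14 by -0.25 (interval -0.47 to -0.03), and Cd163 by -0.62 (interval -0.98 to -0.26) relative to Csf1r. Only Ptprc kept an interval that included 0, at -0.10 (interval -0.24 to 0.04). With Ptprc as the reference, the intervals of Cd14, Fcgr1, and Csf1r included 0, and those of the other 6 genes did not.

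Of the 45 pairs that the 10 members form, 32 had an unequal change, which means that the counting interval of the difference between their differences left out 0. This is 71.1% of the pairs, which share genes and are not independent. By the same rule, 41.3% of all pairs of the 11253 genes were unequal. So were 52.7% of the 91 pairs among 14 other macrophage lineage genes and 35.7% of the 28 pairs among 8 endothelial genes. The share depends on the number of fragments per gene. Trem2 and Cd68 were not distinguishable from each other (Trem2 minus Cd68 0.12, interval -0.08 to 0.33), nor were Adgre1 and Lyz2 (Lyz2 minus Adgre1 -0.09, interval -0.19 to 0.01). The members thus did not keep a common ratio between the libraries, and a pair shows unequal change without showing which of its genes changed.

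**Figure D4:**
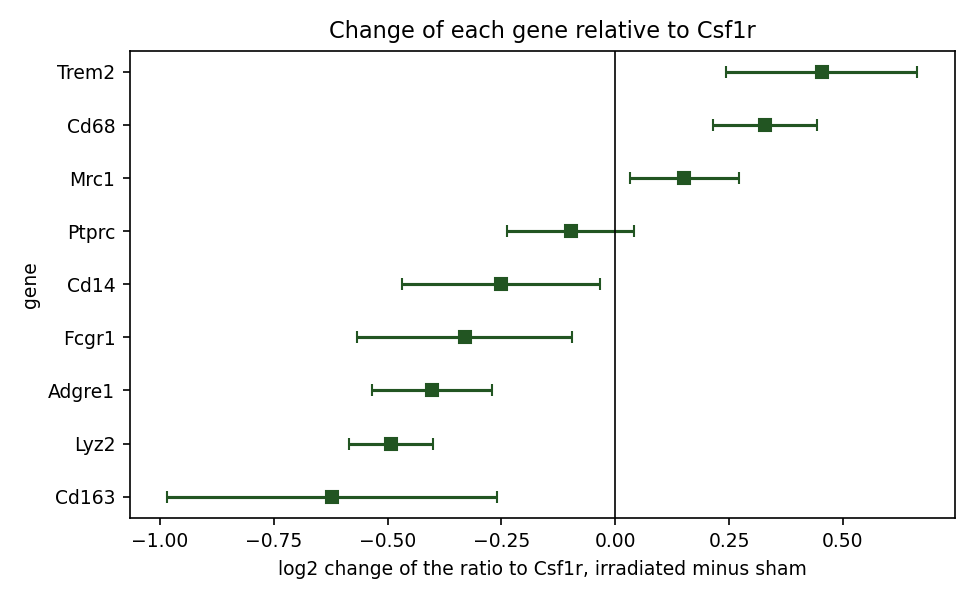
Change of the ratio of each macrophage identity gene to Csf1r between the libraries, irradiated minus sham on the log2 scale, with bars for the 95% counting interval. Trem2, Cd68, and Mrc1 lie to the right of 0, Ptprc crosses 0, and Cd14, Fcgr1, Adgre1, Lyz2, and Cd163 lie to the left.

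The share of each library that came from the members was small. All 10 members took 0.0782% of the fragments in the sham library (exact binomial 95% interval 0.0772 to 0.0792) and 0.0855% in the irradiated library (interval 0.0846 to 0.0865). Lyz2 alone took 0.0466% and 0.0432%. Without Lyz2, the other 9 took 0.0316% and 0.0424%, a log2 ratio of 0.42 (interval 0.39 to 0.46), compared with 0.13 (interval 0.11 to 0.15) for all 10. A sum over the members is therefore set largely by Lyz2.

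Further macrophage genes that are not members were examined as fixed lists. Of 15 other genes of the lineage, 14 reached an FPKM of 1, and 5 of these were higher by 0.5 or more and 0 were lower by as much, with a median difference of 0.41. Ctss, the protease cathepsin S of antigen-presenting cells, had an FPKM of 133 and 211 and a difference of 0.66. Mertk, a receptor for the uptake of dying cells, had 2.06 and 3.00 and a difference of 0.52, and Cd84, an adhesion receptor of leukocytes, had 5.76 and 8.36 and a difference of 0.53. Mpeg1, which encodes a pore-forming protein of macrophages, had 43.6 and 59.6 and a difference of 0.45. Itgam, the CD11b integrin chain shared by macrophages, monocytes, and neutrophils, was close to level, with 24.7 and 26.3 and a difference of 0.09 (interval 0.03 to 0.15). Spi1, the gene of PU.1, had 8.53 and 10.5 and a difference of 0.29 (interval 0.10 to 0.49). Aif1, at 1.39 and 1.26, was the only gene of the 14 with a value below 0, at -0.14 on 38 and 39 fragments.

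Genes of the lipid-associated state were abundant in both libraries, and the lowest FPKM of the 12 was 22.4, although most are also used by adipocytes, fibroblasts, or other cells. Of the 12, 4 were higher by 0.5 or more and 0 were lower by as much, with a median of 0.405. Gpnmb, a glycoprotein of lipid-laden macrophages, had an FPKM of 96.2 and 165 and a difference of 0.78 (interval 0.75 to 0.81), close to that of Trem2. Spp1, which encodes osteopontin, had 183 and 300.1 and a difference of 0.71, and Lgals3, which encodes galectin-3, had 149 and 269 and a difference of 0.85. Apoe, a lipid carrier that binds TREM2, had 22.4 and 43.6 and a difference of 0.96 (interval 0.86 to 1.07). Cd9, Fabp5, Cd36, Lipa, and Plin2 lay between 0.32 and 0.45, and Lpl, Fabp4, and Ctsk between -0.04 and 0.00. Which cells made the higher or the level genes of this list was not tested.

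The genes around TREM2 in signalling were uneven. Of 7 listed, all of which reached an FPKM of 1, 2 were higher and 1 was lower by 0.5 or more. Those higher were the ligand genes Apoe, given above at 0.96, and Clu, which encodes clusterin and had 10.5 and 17.05 and a difference of 0.69 (interval 0.55 to 0.84). Tyrobp, its adaptor, had an FPKM of 35.9 and 45.5 and a difference of 0.34 (interval 0.19 to 0.49), and Syk, the kinase recruited by TYROBP, had 3.84 and 4.93 and a difference of 0.35. Adam10 and Adam17, the proteases that cut TREM2 from the surface, had differences of -0.03 and -0.14. Hcst, another adaptor, had 17 and 11 fragments and a difference of -0.74, with an interval from -2.06 to 0.36.

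Genes of resident macrophages were uneven in the size of their differences, from -0.01 to 0.98 among those that reached an FPKM of 1. Of 12 listed, 7 reached an FPKM of 1, of which 3 were higher by 0.5 or more and 0 were lower by as much. The median of the 7 was 0.27, with 6 intervals above 0 and 0 below. Folr2, the folate receptor of resident macrophages, had 5.72 and 8.18 and a difference of 0.51, and F13a1, a coagulation factor chain, had 3.15 and 4.66 and a difference of 0.55. Gas6, a bridge between dying cells and MERTK that fibroblasts also make, had 27.95 and 55.2 and a difference of 0.98. Lyve1, Timd4, Cbr2, Cd209f, and Cd209b, which mark perivascular and serosal resident macrophages, were at an FPKM of 0.51 or less in both libraries, on at most 18 fragments. Maf, a transcription factor of resident macrophages and other cells, had a difference of -0.01.

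The ligands and receptors of growth factor signalling were measured beside Csf1r. Csf1, the ligand, was abundant, with an FPKM of 393 and 498 and a difference of 0.34 (interval 0.32 to 0.36), a value like the 0.38 of its receptor. Il34, the other ligand, had 1.15 and 1.52 and a difference of 0.38, with an interval from -0.05 to 0.89. Csf2rb, a receptor chain for GM-CSF, had 7.36 and 10.5 and a difference of 0.50. Csf2, the gene of GM-CSF, had only 4 and 25 fragments, a log2 ratio of fragments of 2.45 (interval 0.92 to 4.43).

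The other Fc receptors were also uneven. Fcgr3 had an FPKM of 22.2 and 31.2 and a difference of 0.49 (interval 0.38 to 0.61), and Fcgr2b, the inhibitory receptor, had 4.66 and 6.86 and a difference of 0.55 (interval 0.38 to 0.74). Both intervals lay above that of Fcgr1, which ended at 0.28. Fcgr4 had 1.34 and 1.77 and a difference of 0.37, and its interval from -0.13 to 0.94 overlapped that of Fcgr1. Fcgrt, the neonatal Fc receptor that recycles immunoglobulin G, had 17.9 and 16.5 and a difference of -0.12 (interval -0.24 to 0.00). Fcer1g, the signalling chain of the activating receptors, had a difference of 0.24. In the lipopolysaccharide pathway of Cd14, none of the 8 genes that reached an FPKM of 1 differed by 0.5. Tlr4, which CD14 serves, had 8.84 and 10.1 and a difference of 0.19, and Ly96, its accessory protein, had 10.03 and 12.03 and a difference of 0.26 with an interval from -0.01 to 0.55. Tlr2 had 7.06 and 5.40 and a difference of -0.38.

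Most genes of macrophage activation had values below 0. Of 9 that reached an FPKM of 1, 7 were below 0 and 2 above, with 5 intervals below 0 and 1 above, and a median of -0.14. By 0.5 or more, 1 was higher and 2 were lower. The cytokine Il6 and the chemokines Ccl2 and Ccl3 had differences of -0.19, -0.14, and -0.13. Ccl2 had an FPKM of 1017 and 923, above every member, and Il6 had 35.9 and 31.5. Which cells of the culture made the transcripts of this list was not tested. Nos2, which makes nitric oxide in inflammatory macrophages, had an FPKM of 3.98 and 1.49 and a difference of -1.36 (interval -1.65 to -1.19), and the chemokine Cxcl2 had 5.33 and 3.38 and a difference of -0.64. Arg1, the arginase of alternatively activated macrophages, had 85.5 and 70.9 and a difference of -0.27. Ptgs2, the inducible cyclooxygenase that fibroblasts also make, had 37.7 and 80.3 and a difference of 1.09. Of 10 genes of monocytes and recruited cells, 5 reached an FPKM of 1, with a median difference of 0.05. Among these 5, 1 was higher and 1 was lower by 0.5 or more. Ccr2, the receptor that draws monocytes into tissue, had 1.38 and 0.516 and a difference of -1.27 (interval -1.82 to -1.03). Nr4a1 had 1.33 and 2.35 and a difference of 0.77 (interval 0.46 to 1.17). Plac8 had 151 and 124 and a difference of -0.29. Ly6c2, which marks classical monocytes, had 13 and 10 fragments and a difference that was not detectable at this depth. Fn1 and Vcan of the same list are also made by fibroblasts and had differences of 0.20 and 0.05.

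**Figure D5:**
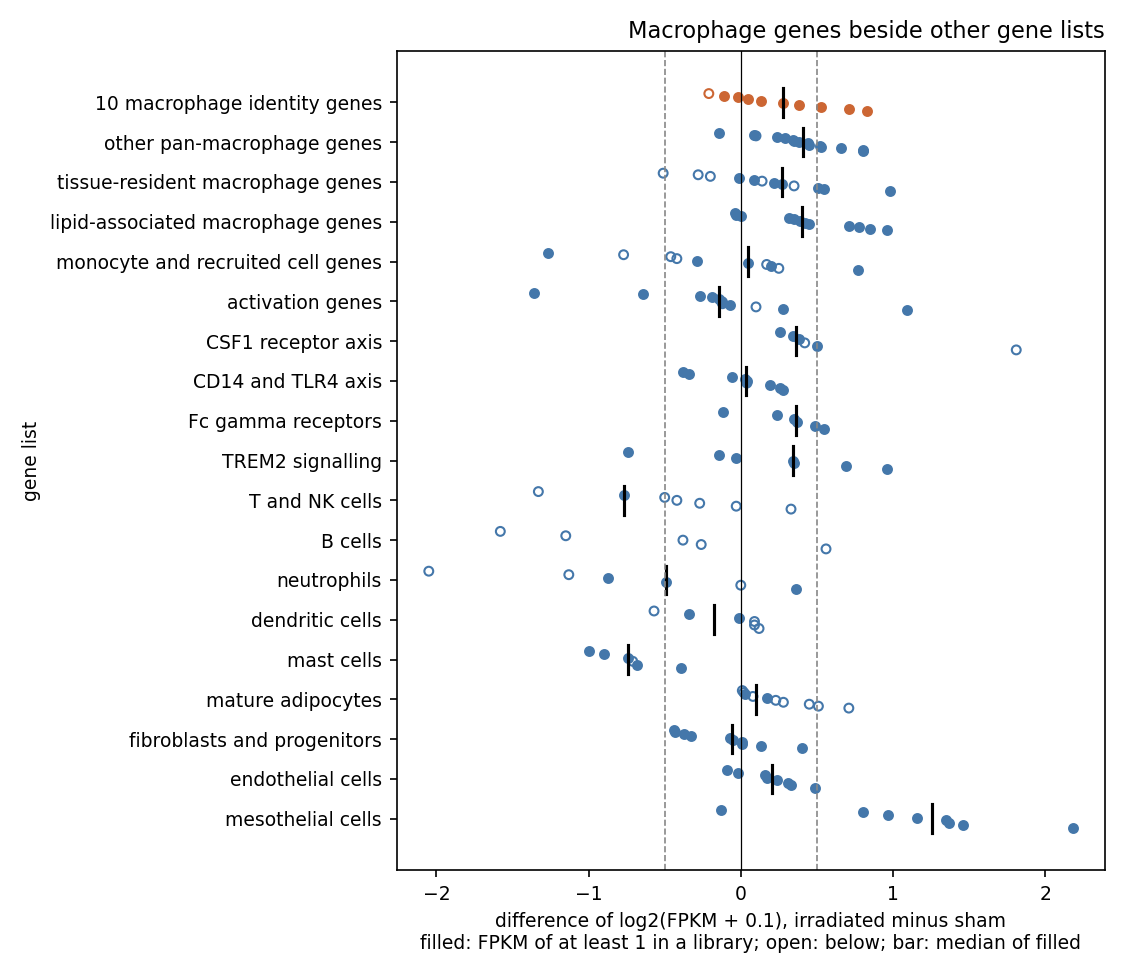
Difference of log2(FPKM + 0.1), irradiated minus sham, for the macrophage identity genes (orange) and the genes of 18 fixed lists (blue), with filled points for genes that reached an FPKM of 1 in either library, open points for the others, vertical bars for the median of the filled points, and dashed lines at -0.5 and 0.5. The identity genes and the lists of other lineage, resident, and lipid-associated macrophage genes have medians between 0.27 and 0.41. Those of monocyte genes, the CD14 and TLR4 axis, and activation genes are 0.05, 0.035, and -0.14. The leukocyte lists with a bar lie to the left of 0, and the bar of T and NK cells rests on 1 gene.

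Ptprc is shared by all leukocytes, and markers of the other leukocytes were low in both libraries. Of 30 such genes, 11 reached an FPKM of 1 in either library, and of these 0 were higher and 6 lower by at least 0.5. Their summed FPKM was 34.1 and 21.9, a log2 ratio of summed fragments of -0.48 (interval -0.58 to -0.38). Mast cell genes that reached an FPKM of 1 lay between -1.0 and -0.39, with Tpsb2, a mast cell tryptase, at 5.36 and 2.63. The B cell gene Cd79a had 29 and 8 fragments and the T cell gene Cd3d had 15 and 4, the lowest differences of their lists. Of 5 B cell genes, 4 were below 0 and 1 above, and of 7 T and NK cell genes, 6 were below and 1 above. Those above 0 were Pax5, with 0 and 2 fragments, and Nkg7, with 3 and 5. Of the 6 neutrophil genes, 4 were below 0 and 1 was above. Ly6g had 0 fragments in both libraries, which on a gene of 1 kb allows an FPKM of up to 0.0981 and 0.0857. S100a9 had 5 and 0 fragments, and Retnlg had 33 and 49 and a difference of 0.36. Itgax, found on dendritic cells and on some macrophages, had 309 and 351 fragments and a difference of -0.01, and the dendritic cell genes Xcr1 and Clec9a had 0 and 1 fragments each. By list, the log2 ratio of summed fragments was -0.69 for mast cells (interval -0.83 to -0.54), the list with the most fragments (931 and 662), and -0.05 for dendritic cells (interval -0.22 to 0.12), with 538 and 594.

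Among lists of other cells of the fat pad, only the mesothelial list held genes past 0.5 that also reached an FPKM of 1. Of 10 fibroblast genes, 0 were past 0.5 in either direction, with a median of -0.06 and a summed FPKM of 4482 and 3585. Their directions were mixed, with 5 intervals below 0, such as those of Col1a1 at -0.44 and Pdgfra at -0.37, and 2 above 0, those of Thy1 at 0.40 and Ly6a at 0.13. Of 8 mesothelial genes, 7 were higher by at least 0.5, where 4.31% of all 11253 genes were. Their range was -0.13 to 2.18, with a summed FPKM of 34.5 and 49.5. Msln, Upk3b, Krt19, and Krt18 were below an FPKM of 1 in the sham library and passed the filter through the irradiated library alone, so the count of 7 is favoured by the filter. Of 8 endothelial genes, 0 were past 0.5 in either direction, with a median of 0.205 and a summed FPKM of 49.3 and 55.8. Of the 10 adipocyte genes, 8 were below an FPKM of 1 in both libraries and 0 of the other 2 were past 0.5. All 10 had values above 0, but only 1 interval lay above 0, that of Plin1 (0.22 to 1.64). Plin1 had a difference of 0.71 on 26 and 56 fragments, and Adipoq had 0.51 on 5 and 10 fragments. The summed FPKM of the 10 adipocyte genes was 12.1 and 13.5. The part of these cells in the differences of the macrophage identity genes was not tested, and an effect of radiation and any other difference between the 2 cultures cannot be told apart.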

How the data were processed

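Libraries were assigned to conditions by the treatment in their labels, and both columns carry the sample titles. The values the authors deposited are the log2 of FPKM (fragments scaled by gene length and library total) after 0.1 was added, kept to 2 decimals, beside each gene's coordinates and length. The build is mm10 per the submitters' processing notes, while the aligner, counter, annotation, and filters were not stated in the sources used here.

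The log2 and the added 0.1 were undone to return to FPKM. Library totals were those at which genes with up to 20 fragments held whole numbers within a tolerance of 0.12, which 99.97% of 3601 genes in the sham-irradiated and 100% of 3608 in the irradiated library did. Fragments of abundant genes are approximate because rounding leaves up to 0.01 in a difference. These steps were tested on simulated libraries.

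Intervals of a ratio are exact binomial (Clopper-Pearson). Intervals between genes are on the log scale, with 0.5 added to each fragment count. Counts of genes cover those that reached an FPKM of 1 in either library. A count of 0 allows up to 3 fragments. The members, lists, and thresholds were chosen with earlier results of these data known. Named genes are the members, the 19 lists (1 gene, Trac, had no entry), and neighbours within 1 kb. No test was run, because each condition had 1 library. Alternatives were other pseudocounts, filters, scalings, thresholds, and interval levels. Values were computed in Python 3.11.15 with SciPy 1.17.1, numpy 2.4.6, and pandas 2.3.3, and drawn with matplotlib 3.10.9.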

Additional observations from a re-analysis of the deposited data

How the results depend on the processing

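No paired analysis was possible because there was 1 library a group, and no replicate could be left out. With a threshold of 1 in place of 0.5, 0 members were higher, so the count of 3 depends on the threshold. It was 2 with log2(FPKM + 1) and 3 under the other filters and scalings, and 0 members were lower under each. The median difference lay between 0.205, without a filter, and 0.33, with an FPKM of at least 5, and the mean was 0.309. The count of intervals above 0 was 5 at the 95% level, with the interval widened for 10 members, and with scaling that left out the 100 most abundant genes. With the interval widened for 45 pairs, 25 pairs were unequal in place of 32. With Ptprc in place of Csf1r as the reference, 6 members had an interval that left out 0 in place of 8. Under the other pseudocounts and scalings, all 40 values of single members stayed within their counting interval, and a filter cannot move such a value. Most of these values could not have left it. The 2 scalings moved each value by only -0.02 or -0.012, less than the reach of the narrowest interval. A value without a pseudocount is the ratio on which the interval is built. Only log2(FPKM + 1) could therefore have moved a value out. Depth limits Cd163, Cd14, and Fcgr1, which had between 127 and 455 fragments in each library.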
